A study of Mus musculus with 3 samples.

Results

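The haem synthesis genes Alas1, Alas2, Alad, Uros, Urod, Cpox, Ppox and Fech were taken by symbol from the deposited expression values, and all 8 were found among 11419 listed genes. The values came from 3 RNA sequencing libraries of cells sorted from the marrow of C57BL/6 mice, an inbred strain, all in 1 group. The cells had been gated as Cd11b+F4/80+CD169+ and CX3CR1neg, so all libraries share strain, tissue and gate. No treatment, age or second population was given in the sources used here. Nothing in the labels ties a library to a mouse of its own. The p-values thus cover scatter between the 3 libraries, part or all of which may be technical. In the tests against a fixed level, that scatter is in part borrowed from other genes.

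Haem is an iron-bearing ring made from glycine and succinyl-CoA by a chain of enzymes that starts in the mitochondrion, passes through the cytosol and returns to the mitochondrion. The first step, 5-aminolevulinate synthase, sets the pace, and mammals carry a separate gene for it in most tissues (Alas1) and in red cell precursors (Alas2). In marrow the largest user is haemoglobin of erythroblasts, while granulocyte precursors need haem for myeloperoxidase and for the cytochrome of the phagocyte oxidase.

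The libraries held 5150020, 40149274 and 37604930 assigned reads in replicates 1, 2 and 3, so the precision of replicate 1 was the lowest. CPM is a gene's reads divided by the reads of all listed genes and scaled to a total of 1000000. A list of macrophage genes, used to check the labelled cell type, had 6 of 12 members above 10 CPM and 4 below, and Siglec1, the gene of CD169, was at 0.388, 3.66 and 4.57 CPM. Late neutrophil genes were far higher, with 9 of 9 above and a list median of 16571 CPM, and all 7 genes of a promyelocyte list were above 10 CPM. Of 16 listed erythroid genes, 6 were above 10 CPM and 8 below, and all 16 had reads in every library. These list counts stand beside 58.8% above and 28.3% below over all genes tested. In these bulk libraries, fewer cells of a type and less RNA per cell cannot be told apart.

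Of the 8 enzymes, 5 stood above 10 CPM and 1 below. With limma each gene was tested against a fixed level of 10 CPM on the log2(CPM + 1) scale. A gene was called at a Benjamini-Hochberg adjusted p under 0.05 over 11123 genes. The SE and p use a variance drawn towards that of genes of like level, so they do not measure the gene's own spread alone. Alad and Uros both had an SE of 0.25, although their coefficients of variation over libraries were 44.7% and 8.48%. Alas1, Alas2, Urod, Ppox and Fech were called above, Uros was called below, and Alad and Cpox were called neither way. Over all genes tested, 58.8% were called above and 28.3% below, so the members' 5 of 8 and 1 of 8 are close to what the whole table gives. In edgeR on the recovered reads the members' counts were also 5 and 1, where 59.9% of genes were above and 25.1% below. The median of the 8 genes was 29.7 CPM, beside 20.9 CPM over all genes tested.

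**Figure D1:**
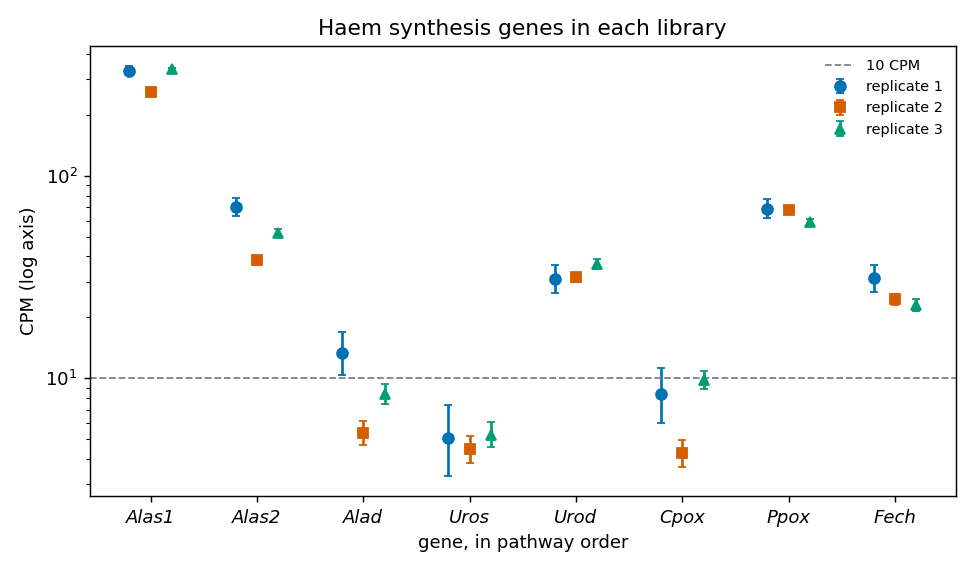
CPM (log axis) of each haem synthesis gene in the 3 libraries, with exact Poisson 95% intervals of the reads as bars and a dashed line at 10 CPM. Alas1 lies between 261 and 337 CPM, and Uros lies under the line in every library.

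Alas1, the housekeeping form of the first enzyme, was the most abundant member. Its level was 332, 261 and 337 CPM in replicates 1, 2 and 3, or 309.9 ± 42.7 CPM (SD, n = 3). Replicates 1 and 3 were nearly level and replicate 2 was lower, with a ratio of replicate 2 to replicate 3 of 0.773 (exact binomial 95% interval 0.753 to 0.793, counting error only). Its log2 level over 10 CPM was 4.81 (SE 0.11, limma adjusted p = 9.52e-21). Alas1 lies on GRCm38 chromosome 9 (106233455 to 106248654, minus strand, ENSMUSG00000032786).

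Alas2, the erythroid form, was present in every library at a lower level. Its level was 70.5, 38.2 and 52.5 CPM in the same order, or 53.7 ± 16.2 CPM (SD, n = 3). Replicate 1 was highest and replicate 2 lowest, with a ratio of 1.84 between them (exact binomial 95% interval 1.64 to 2.07). Its log2 level over 10 CPM was 2.27 (SE 0.16, limma adjusted p = 6.61e-12). Alas2 lies on chromosome X (150547375 to 150570638, plus strand, ENSMUSG00000025270), and the lowest Alas1 library exceeded the highest Alas2 library.

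Sequences around the starts of Alas1 and Alas2 are shown because the pair catalyses 1 reaction under different control. The window before the RefSeq start (GRCm38.p6, 250 bases) was searched on both strands in 10 windows of the 7 members that matched. The motif AGATAA, of the kind bound by GATA factors, occurred in the Alas2 window and in no other, beginning 86 bases before the start. It is in 9.99% of all 32851 windows of that length and in 5.88% of the 11305 windows of listed genes. The motif CGCATGCG, the core of the palindrome bound by NRF1, a factor of mitochondrial biogenesis genes, occurred in 1 of 2 Alas1 windows, beginning 194 bases before the start, and in no other member's. It is in 1.55% of all windows and in 3.24% of those of listed genes. The erythroid CACCC box CCACACCC, in 3.20% of all windows and 3.40% of those of listed genes, was in none of the members' windows. These motifs do not overlap one another, and a match is a description of letters, not of binding. Capitals mark these motifs, the first as its reverse complement, on chrX:150547167-150547374 (plus strand) and chr9:106247905-106247934 (minus strand). The first stretch lies outside annotated Alas2 exons, and GENCODE annotates an exon of an Alas1 transcript over the second.
Alas2 upstream: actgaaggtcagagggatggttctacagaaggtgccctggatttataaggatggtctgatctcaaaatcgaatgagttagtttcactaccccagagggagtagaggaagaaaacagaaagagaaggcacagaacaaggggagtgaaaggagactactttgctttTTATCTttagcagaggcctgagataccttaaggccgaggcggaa
Alas1 upstream: gcacccaaggCGCATGCGcggcggtcactc

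The 5′ UTRs of the 8 genes were also searched for an iron-responsive element, the hairpin through which iron regulatory proteins block translation. The pattern was a C, 5 bases, the loop CAGTGN and 5 bases that pair with the first 5, with G-T pairs allowed. It was found in Alas2 and in no other member, and in 0.223% of 10763 listed genes with a coding transcript model. The loop is in capitals below. The site lies on chromosome X at 150547458 to 150547485 in the first exon and at 150552149 to 150552150 in the next. CPM measures RNA, so these values say nothing about translation.
Alas2 iron-responsive element: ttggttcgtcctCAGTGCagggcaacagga

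Per length of gene, Alas1 exceeded Alas2 in every library by a smaller margin than in CPM. CPM per kb divides CPM by the annotated exon length of the gene in kilobases. On that scale Alas1 was 1.83, 2.65 and 2.50 times Alas2 in replicates 1, 2 and 3. The difference of log2(CPM per kb + 1) was 1.16 ± 0.27 (SD, n = 3), and the exact permutation test by sign flips (two-sided) gave p = 0.25, its minimum for n = 3. The ratio depends on the length taken: it was 2.33 ± 0.44 with all exon bases, 3.59 ± 0.67 with the longest coding transcript and 5.98 ± 1.12 in CPM with no length. Alas2 made up 17.5%, 12.8% and 13.5% of the summed CPM of both genes in replicates 1, 2 and 3.

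**Figure D2:**
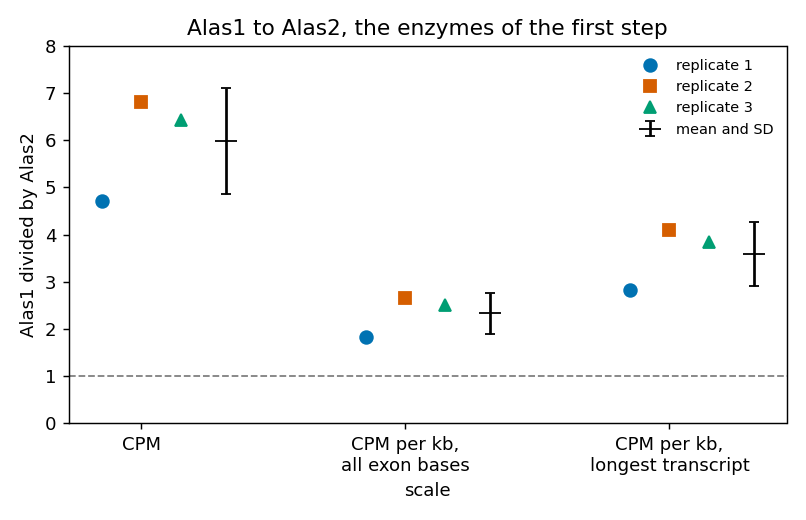
Alas1 divided by Alas2 in each library on 3 scales, with the mean and SD beside the points and a dashed line at 1. All 9 points lie above 1, and replicate 1 is lowest on each scale, at 4.71 in CPM.

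The cytosolic enzymes ran from low to moderate. Alad, which joins 2 molecules of 5-aminolevulinate into porphobilinogen, was at 13.4, 5.38 and 8.40 CPM in replicates 1, 2 and 3. Replicate 1 was above 10 CPM and the others were below, with a mean of 9.06 ± 4.05 (SD, n = 3). Alad was called neither way (log2 level -0.21, SE 0.25, limma adjusted p = 0.428), and without replicate 2 its log2 level was 0.081.

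Uros, which closes the ring to uroporphyrinogen III, had the lowest mean CPM of the 8, although Cpox was lower in replicate 2. It was at 5.05, 4.46 and 5.27 CPM, and all libraries lay within the interval of replicate 1, 3.30 to 7.40 CPM from 26 reads. Its log2 level was -0.90 (SE 0.25, limma adjusted p = 0.00252), the only member called below 10 CPM. Urod, which trims the side chains to coproporphyrinogen, was several times higher at 31.1, 31.5 and 36.8 CPM, with a log2 level of 1.63 (SE 0.16, limma adjusted p = 2.08e-09). Its replicates 1 and 2 were level, with a ratio of 0.985 (exact binomial 95% interval 0.831 to 1.16).

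The mitochondrial end of the pathway held both a low and a high member. Cpox, which makes protoporphyrinogen IX, was at 8.35, 4.26 and 9.84 CPM. Replicate 2 was lowest, with a ratio to replicate 3 of 0.433 (exact binomial 95% interval 0.359 to 0.520). Its log2 level was -0.44 (SE 0.25, limma adjusted p = 0.107), and without replicate 3 it was called below at -0.65 (limma adjusted p = 0.0395). That fit held replicates 1 and 2 alone, with a ratio of 1.96 (exact binomial 95% interval 1.37 to 2.75). Its p draws on the scatter of other genes and does not measure this spread.

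Ppox, which oxidises protoporphyrinogen to protoporphyrin, was at 68.9, 68.0 and 58.9 CPM, and the 3 libraries were close. Its log2 level was 2.59 (SE 0.13, limma adjusted p = 2.41e-14). Of its exon bases, 17.5% (791 bases) lie opposite exons of B4galt3, a glycosyltransferase gene at 112, 103 and 102 CPM. The strand setting of the counting was not given in the sources used here, so reads there cannot be told apart. How many of the Ppox reads fall in the shared bases was not measured, and its level is uncertain for that reason. Alas2 likewise shares 311 exon bases with Apex2 on the other strand (5.63, 5.68 and 13.0 CPM), and Alas1 shares 465 with the antisense gene 4930500F10Rik, which was not listed.

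Fech, ferrochelatase, which inserts iron in the final step, was at 31.3, 24.6 and 23.0 CPM. Replicate 1 was highest, and replicates 2 and 3 had a ratio of 1.07 (exact binomial 95% interval 0.973 to 1.17). Its log2 level was 1.30 (SE 0.17, limma adjusted p = 3.03e-07). Because Fech has 13838 annotated exon bases, it was only 1.90 ± 0.32 CPM per kb (SD, n = 3). Per kb it was below 10 (log2 level -1.93, limma adjusted p = 1.42e-06).

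The remaining genes lie on chromosomes 4 (Alad, 62509169 to 62519918, minus strand, and Urod, 116989965 to 116994413, minus strand), 7 (Uros, 133686243 to 133710072, minus strand) and 16 (Cpox, 58670292 to 58717636, plus strand). Ppox is on chromosome 1 (171275990 to 171281186, minus strand) and Fech on chromosome 18 (64452914 to 64490251, minus strand). These are GRCm38 positions of the full annotated genes, each of which encodes a protein.

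Followed per kb, the pathway was uneven, with high first enzymes and low levels at Uros, Cpox and Fech. From high to low the means were Alas1 at 50.2 CPM per kb, Alas2 at 22.4, Ppox at 14.5, Urod at 12.8, Alad at 4.84, Fech at 1.90, Uros at 1.38 and Cpox at 1.12. The ranges of neighbours over libraries overlapped for Ppox with Urod and for Uros with Cpox, and each of those pairs changed order in replicate 3. The other 5 neighbouring pairs did not overlap and every library gave the same order. The exact permutation p by sign flips was again at its minimum of 0.25 for each of the 5. With the longest coding transcript as the length, Ppox at 35.9 CPM per kb moved ahead of Alas2 at 26.4, and their ranges overlapped. The ranges of Alad (4.31 to 10.7) and Fech (3.50 to 4.76) then overlapped too, although Alad was higher in every library. Those of Ppox and Urod no longer overlapped on that length. Alas1 stayed highest and Uros and Cpox lowest with either length.

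Against a level of 10 CPM per kb, limma called Alas1, Alas2, Ppox and Urod above and the other 4 below, where 26.1% of 11115 genes were above and 62.8% below. Among the listed genes with a length, Alas1 stood at percentile 93.0 in CPM per kb, Alas2 at 84.4 and Cpox at 23.7.

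**Figure D3:**
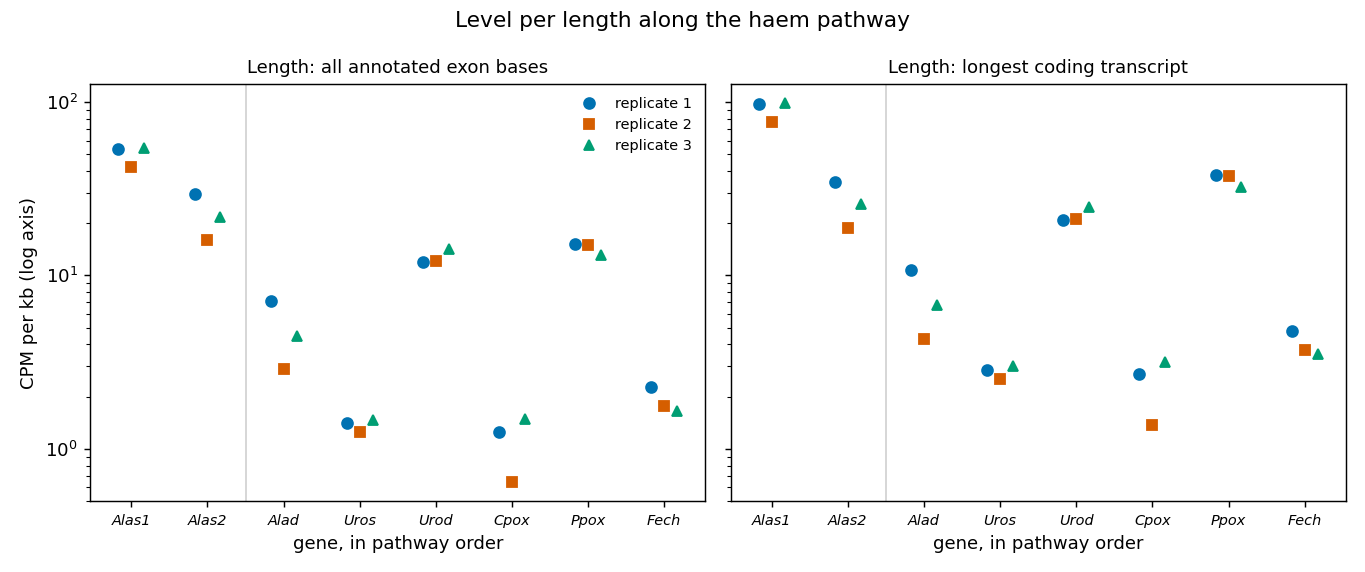
CPM per kb (log axis) of each gene in pathway order and in each library, with all annotated exon bases as the length on the left and the longest coding transcript on the right. The vertical line divides the first step from the later ones. Uros and Cpox lie lowest in both panels, at means of 1.38 and 1.12 on the left.

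**Figure D4:**
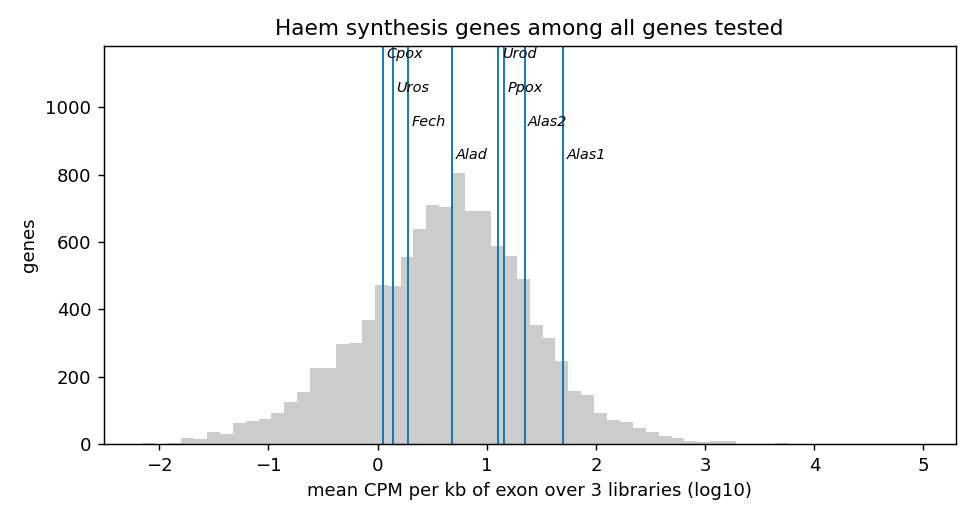
Histogram of mean CPM per kb of exon (log10) over the genes tested, with a line for each haem synthesis gene. Alas1 lies in the upper tail at 50.2 CPM per kb and Cpox on the lower flank at 1.12.

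Replicate 2 was lowest for 5 of 8 members (Alas1, Alas2, Alad, Uros and Cpox) and highest for 0, while over all genes tested replicate 2 was lowest for 30.1% and highest for 19.7%. The coefficient of variation was 44.7% for Alad, 38.6% for Cpox and 30.1% for Alas2. Genes within 1.5-fold of each one's mean had median values of 24.7%, 26.7% and 14.6%. For Alas1 it was 13.8% beside 11.9%. Ppox (8.50% beside 14.5%), Urod (9.53% beside 16.5%), Uros (8.48% beside 33.8%) and Fech (16.7% beside 17.5%) varied less than the median of their neighbours in level. These are descriptions over 3 libraries with no test.

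Alas2 was set beside other erythroid transcripts, since erythroblasts carry its RNA at high level. The haemoglobin genes Hbb-bs, Hbb-bt, Hba-a1 and Hba-a2 summed to 917, 506 and 465 CPM in replicates 1, 2 and 3. Both Alas2 and the globins were highest in replicate 1. Of the other libraries, replicate 3 had the lower globin sum and replicate 2 the lower Alas2 level, with an Alas2 ratio of replicate 2 to replicate 3 of 0.729 (exact binomial 95% interval 0.681 to 0.779).

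Alas2 thus equalled 7.68%, 7.56% and 11.3% of the globin sum in CPM, with no length taken. Alas2 has 2403 exon bases and the globin genes 667 to 812, so its share per kb is lower. Slc4a1, the band 3 anion exchanger of red cells, was at 50.7, 49.3 and 71.5 CPM, highest in replicate 3. The summed level of the 16 erythroid genes was 1046, 618 and 611 CPM. The 4 globins are part of those sums and make up most of them, at 917, 506 and 465 CPM. Of the 16, 9 were highest in replicate 1 and 9 were lowest in replicate 2. Over all genes tested, 32.1% were highest in replicate 1 and 30.1% lowest in replicate 2. The part of erythroid RNA in the Alas2 level was not tested. Genes of basophils and mast cells were highest in replicate 1 for 5 of 6 listed members, beside the same 32.1%, and their sum there was 1522 CPM beside 743 and 812.

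Mpo and the phagocyte oxidase genes Cybb and Cyba were each above every haem synthesis gene in all 3 libraries. Mpo, the myeloperoxidase gene, was at 3566, 2659 and 3355 CPM, lowest in replicate 2 as Alas1 was, and stood at 10.8, 10.2 and 9.95 times Alas1. Mpo and Alas1 thus kept nearly the same ratio, although 3 libraries are too few for a correlation. The mitochondrially encoded haem proteins mt-Cytb (1309, 990 and 1358 CPM) and mt-Co1 (2815, 2380 and 3122 CPM) were lowest in replicate 2 too.

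Other haem users moved differently between libraries. Epx, eosinophil peroxidase, was at 66.4, 122 and 275 CPM, and its lowest library was replicate 1. The 7 listed eosinophil genes, of which 5 were above 10 CPM and 1 below, summed to 526, 853 and 1262 CPM, in the same order of libraries as Epx, which is 1 of the 7 and part of those sums. The part of eosinophil RNA in the Epx level was not tested. Cybb, the haem-binding chain of the phagocyte oxidase, was at 1943, 2210 and 2492 CPM, and its partner Cyba at 1420, 1411 and 1047. Cat, catalase, was at 26.8, 38.0 and 36.2 CPM. Per kb, Mpo reached 932.6 ± 138.5 and Cybb 381 ± 47.3, beside 50.2 ± 6.91 for Alas1 (CPM per kb, SD, n = 3). Of 9 listed peroxidase and oxidase haemoproteins, 8 were above 10 CPM and 1, the prostaglandin synthase gene Ptgs2, was below. Both these counts and those of the eosinophil genes stand beside 58.8% above and 28.3% below over all genes tested.

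**Figure D5:**
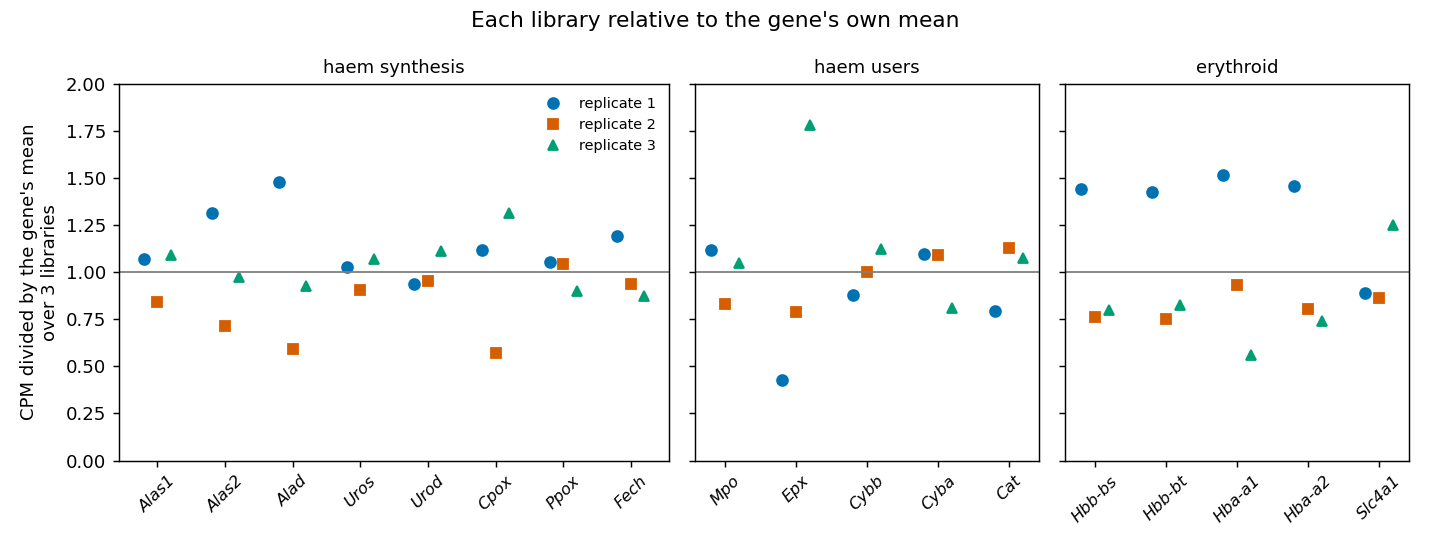
CPM of each library divided by the gene's mean over 3 libraries, for haem synthesis genes, haem users and erythroid genes, with a line at the mean. Alas1 and Mpo are lowest in replicate 2, the 4 globin genes are highest in replicate 1, and Epx is highest in replicate 3.

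Of 20 listed genes that supply substrate and iron to the mitochondrion, 14 were above 10 CPM, 3 below and 3 neither, with a median of 22.7 CPM. The counts of this list and of those that follow stand beside 58.8% above and 28.3% below, and a median of 20.9 CPM, over all genes tested. Slc25a37, mitoferrin 1, the iron importer of the inner membrane, was at 67.2, 72.9 and 99.7 CPM, the highest mean of the list (79.9 CPM), although Tmem14c was higher in replicate 1. Tmem14c, which passes porphyrin into the matrix, was at 75.7, 69.9 and 57.9 CPM, and Suclg1, a subunit of succinyl-CoA ligase, at 48.2, 40.7 and 48.2. Suclg2, another subunit of that ligase, was below 10 CPM at 1.55, 2.67 and 5.69.

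Among regulators of haem and iron genes, of 14 listed, 8 were above 10 CPM, 5 below and 1 was not tested. Nfe2, a factor of erythroid and megakaryocytic genes that myeloid cells also express, was at 464.7 ± 32.9 CPM, Nfe2l2, the oxidative stress factor, at 173 ± 17.4 and Fbxl5, the iron sensor, at 107 ± 36.6 (SD, n = 3). Gata1 and Klf1, the erythroid activators of Alas2, were named after their values were seen: Gata1 had 0, 4.71 and 3.06 CPM and Klf1 2.33, 3.61 and 1.52. A count of 0 in replicate 1 allows up to 0.583 CPM there, taken as 3 reads. Nr1d1, a haem-binding repressor, was below at 0, 0.399 and 1.12 CPM, and Ppargc1b, with 7 reads in all, was not tested.

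Transport and breakdown of haem were led by Slc48a1, a lysosomal haem transporter, at 123, 104 and 94.3 CPM and by Hmox1, haem oxygenase 1, at 117, 70.9 and 101. The constitutive oxygenase Hmox2 was at 76.7, 59.1 and 65.7 CPM. Of the 10 listed genes, 5 were above 10 CPM and 4 below, among them the porphyrin exporter Abcg2 (0.583, 3.41 and 3.11) and Slc46a1 (0, 0 and 0.452). Of 10 iron uptake and storage genes, 8 were above and 2 below, with a median of 136 CPM: Fth1 and Ftl1, the ferritin chains, were at 871 ± 63.1 and 624 ± 115 CPM, and the iron chaperone Pcbp2 at 378 ± 40.8. Slc11a2, an iron importer, was below at 4.08, 1.42 and 1.04 CPM, as was Steap3 at 4.47, 3.04 and 7.05. Of 9 mitochondrial haem proteins and makers of haem A and C, 7 were above and 0 below, with Cyc1 at 78.6, 74.3 and 80.9 CPM. Hccs and Cox10, which attach or modify haem, were called neither way.

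The genes most like Alas1 and Alas2 in level and pattern were found by the root mean square difference of log2(CPM + 1) over the 3 libraries. For Alas1 they were Hnrnpl (0.073), Anp32a (0.080) and Srgn (0.083). For Alas2 they were Fen1 (0.066, at 67.6, 35.7 and 53.1 CPM), Cdca7l (0.10) and Eif2b2 (0.112). With 3 libraries such likeness is a description only.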

How the data were processed

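The authors deposited CPM for each gene in 3 libraries. Per the submitters' processing notes, FastQC, STAR, featureCounts and edgeR were used with the builds mm10 and GRCh38. The sources used here give no versions, annotation, strand setting or gene filter. Genes repeated under another Entrez identifier (44 entries) were kept once, which left CPM that summed to 1000000 per library. Dividing by the smallest step gave whole reads for 100% of values, within 0.01 reads.

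Levels were tested with limma 3.58.1 in R 4.3.3: an intercept of log2(CPM + 1) against 10 CPM, with a variance trend, over genes with at least 10 reads in sum. Run on the recovered reads, edgeR 4.0.16 called 6660 genes above and 2787 below 10 CPM, beside 6539 and 3153 in limma. DESeq2 1.42.0 was a further alternative. All of these tools were also run on simulated reads with genes set at known levels. The median log2 levels from edgeR and DESeq2 were checked against those levels, while those from limma were not held to a limit. Exon lengths came from GENCODE M21 (GRCm38, the assembly of mm10) and covered 99.93% of genes. Upstream windows came from RefSeq (GRCm38.p6), in which 7 of 8 members matched. Intervals (95%) and the limit of 3 reads for a count of 0 cover counting error only.

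The labels number the libraries as replicates 1 to 3, and each was counted as 1. They differed by more than sampling noise (chi-square per degree of freedom 35.4 to 83.6), so none was a repeat deposit of another. Members and lists were chosen with earlier results of these data known. Named genes were the 8 members; Mpo, Epx, Cybb, Cyba and Cat; in each other list the 3 highest and 2 lowest by mean CPM, of which those of the cell type lists are given by list counts; and the 3 genes most like Alas1 and Alas2. Outside the rule, Slc4a1, Hbb-bt, Siglec1, Gata1, Klf1 and the genes overlapping members were named after their values were seen. Some genes that the rule takes are not reported here.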

Additional observations from a re-analysis of the deposited data

How the results depend on the processing

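The count of 5 members above 10 CPM was the same with a pseudocount of 0.1, no filter, edgeR, DESeq2, both rescalings, a level of 20 CPM and each replicate left out. At 5 CPM it was 6, and per kb of exon 4. The count below, 1 in the main test, was 0 in limma at 5 CPM (0 also at an unadjusted p under 0.05), 3 at 20 CPM and 4 per kb, and ranged from 1 to 2 with a replicate left out. At 5 CPM the log2 levels of Alad and Cpox turned to 0.67 and 0.43. With a replicate left out that of Alad ranged from -0.51 to 0.081, above 0 without replicate 2, and per kb that of Fech was -1.93. Over all genes, 1870 were below 5 CPM, and per kb 2896 were above and 6976 below. The order per kb depended on the length: with the longest coding transcript Alas2 ranked 3 and Ppox 2, and in CPM Alas2 ranked 3, Ppox 2, Fech 5, Alad 6, Cpox 7 and Uros 8. These shifts follow from another level or length, except that the cause of those without a replicate was not tested. Alas1 exceeded Alas2 under every alternative run for the pair (1.07 to 2.54 in log2). The size of the adjusted p-values depended on the filter. With no filter, limma gave the same log2 levels and a larger adjusted p for every member. For Alas1 the limma adjusted p was then 2.51e-05 beside 9.52e-21 in the main test. For Alas2 it was 0.000907 beside 6.61e-12, and for Ppox 6.18e-05 beside 2.41e-14. No paired analysis was possible because the series has 1 group. Depth limits Alad, Uros and Cpox in replicate 1 most, with 69, 26 and 43 reads.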
